A study of Mus musculus with 14 samples.

Results

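The genes described here are 42 interferon-stimulated genes, taken as a named list from the gene tables of 14 RNA sequencing libraries of a mouse lens epithelial line. Of the 42, 41 averaged at least 1 TPM (a level scaled to library size and transcript length) over the libraries and were examined among 12,927 genes that met the same minimum. Ifitm1 did not reach it, with at most 0.191 TPM. All 41 also averaged at least 1 TPM over the 7 TGFβ libraries alone and over the 7 control libraries alone.

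Interferon-stimulated genes are the effector arm of the interferon response. Type I interferons, such as interferon beta, bind a receptor made of IFNAR1 and IFNAR2, whose kinases JAK1 and TYK2 phosphorylate STAT proteins. STAT2 and IRF9 take part in the complex ISGF3, which binds a DNA motif called the interferon-stimulated response element. Interferon gamma acts mainly through a different motif, the gamma-activated site. The induced proteins sense foreign nucleic acids, block translation and viral entry, and feed back on the pathway, and many are made at a low level in cells that have met no virus.

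The cells were αTN4-1, a line derived from the lens of transgenic mice, immortal through a viral T antigen expressed there. The 7 stable lines were labelled R314A-CREB, S133A-CREB, WT-CREB, KCREB, S133A-KCREB, S133A/R314A-CREB and Vector, and each gave 1 library from TGFβ-treated cells and 1 from control cells. Neither KCREB line is named in the growth protocol. CREB turns on genes with cAMP response elements. S133A removes its main phosphorylation site, R314A, in the leucine zipper, impairs contact with CRTC coactivators, and KCREB has lost DNA binding and blocks the normal protein. All lines were kept under neomycin, and TGFβ was given at 20 ng/mL for 24 h in medium without serum. The labels do not say whether control cells were also without serum, so effects of the cytokine and of serum withdrawal cannot be told apart. Each line was 1 stable line with no repeat culture of either treatment, so p-values measure the spread between lines.

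Creb1, which encodes CREB (chromosome 1, 64571963 to 64643707, GRCm39), went against the label in 4 of the 6 CREB lines. It lay above Vector in KCREB, at 30.1 TPM with TGFβ and 25.8 TPM in control, and in S133A-KCREB, at 38.3 and 34.0 TPM. Vector had 23.1 TPM with TGFβ and 20.8 TPM in control. WT-CREB (9.68 and 11.6 TPM), R314A-CREB (5.89 and 9.04 TPM), S133A-CREB (4.43 and 6.59 TPM) and S133A/R314A-CREB (6.01 and 7.92 TPM) lay below it. Every line is therefore called only by its label. The ratio of coverage to FPKM, a stand-in for depth, was highest in the S133A-CREB TGFβ library (10.1) and lowest in the R314A-CREB control library (5.05). Of 10 lens epithelium markers 7 averaged at least 1 TPM, among them Pax6, Six3, Sox2 and Cryab, while Foxe3 and Cdh1 stood at or near 0.

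The set moved in opposite directions in different lines. With TGFβ it was higher than in control in R314A-CREB and S133A-CREB and lower in WT-CREB, KCREB, S133A-KCREB, S133A/R314A-CREB and Vector. The median difference of the 41 genes on the log2(TPM + 1) scale was 0.65 in R314A-CREB and 0.33 in S133A-CREB. It was -0.54 in WT-CREB, -0.73 in KCREB, -0.66 in S133A-KCREB, -0.31 in S133A/R314A-CREB and -0.33 in Vector. Over all genes tested the median lay between -0.0077 and 0.05 in every line. In R314A-CREB 33 of the 41 were higher with TGFβ and in S133A-CREB 34, against 1 in WT-CREB, 3 in KCREB, 2 in S133A-KCREB, 10 in S133A/R314A-CREB and 11 in Vector. The summed level of the genes was 6373 TPM with TGFβ and 3588 TPM in control in R314A-CREB, and 8749 and 7048 TPM in S133A-CREB. For WT-CREB the sums were 2036 TPM with TGFβ and 2759 TPM in control, for KCREB 1959 and 3343 TPM, for S133A-KCREB 1480.5 and 2215 TPM, for S133A/R314A-CREB 2207 and 2795 TPM, and for Vector 2532 and 3150.2 TPM.

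Counts past 2-fold ran the same way, with 1 library per side and hence no test. In R314A-CREB 15 of the 41 genes were at least 2-fold higher with TGFβ (2.06% of all genes tested were) and 0 at least 2-fold lower (2.88%). In S133A-CREB 6 were higher (1.18%) and 0 lower (1.8%). None was 2-fold higher in the other lines, where the shares of all genes were 0.82% in WT-CREB, 3.45% in KCREB, 1.83% in S133A-KCREB, 2.05% in S133A/R314A-CREB and 2.74% in Vector. The genes at least 2-fold lower numbered 7 in WT-CREB (0.828% of all genes), 15 in KCREB (4.16%) and 12 in S133A-KCREB (2.66%). They numbered 4 in S133A/R314A-CREB (2.92%) and 7 in Vector (3.25%). In all, 19 of the 41 genes (46.3%) were higher with TGFβ in both R314A-CREB and S133A-CREB and lower in each of the other 5 lines, as were 158 of all genes tested (1.22%). That split of the lines was taken from the medians of these same genes, so the larger share describes the set and is not a test of it. Another 3 (Oas3, Ifi27 and Gbp2) were lower in all 7 lines, as were 15.9% of all genes, and 0 were higher in all 7.

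**Figure D1:**
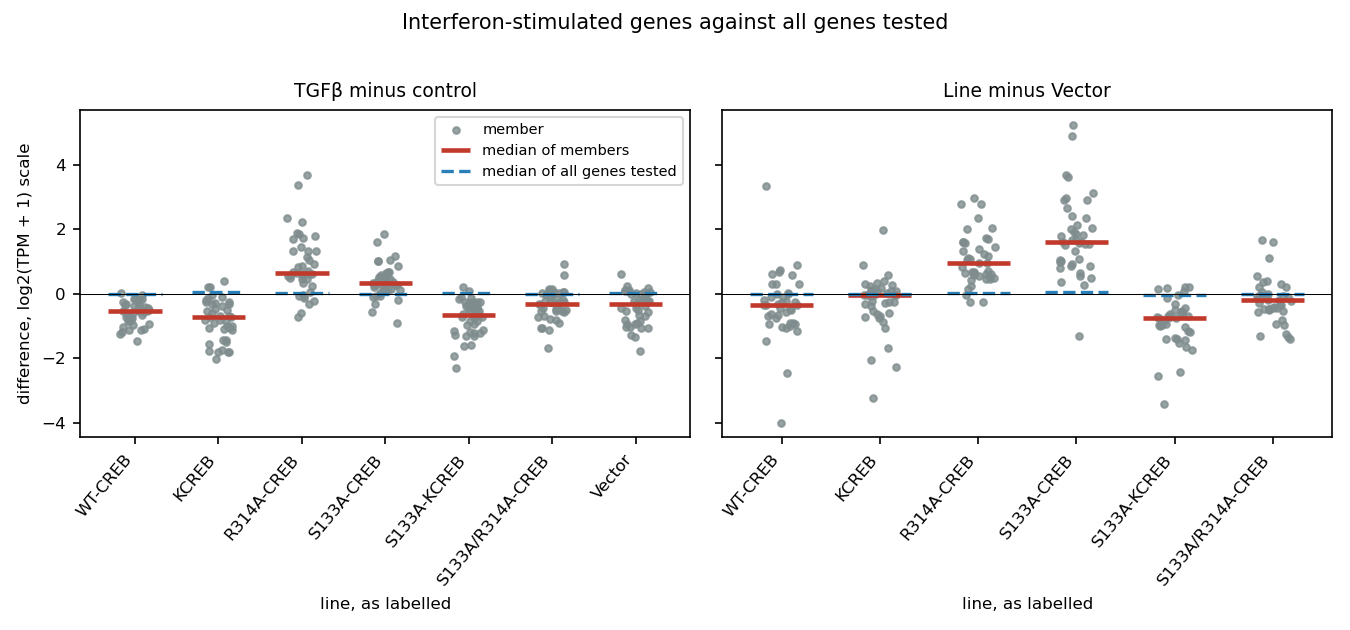
TGFβ minus control in each line (left) and line minus Vector, as the mean over TGFβ and control libraries (right), on the log2(TPM + 1) scale. Grey points are the 41 genes, red bars their medians and dashed blue bars the medians of all 12,927 genes tested; the red bars lie above 0 in R314A-CREB (0.65) and S133A-CREB (0.33) on the left and below 0 in the other 5 lines.

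The stretch of promoter that carries the motif of ISGF3 is shown for genes of both kinds of behaviour. The letters searched were GAAANNGAAA for the interferon-stimulated response element, TTCNNNGAA for the gamma-activated site and TGACGTCA for the cAMP response element, on both strands of the 250 bases before each gene's start in RefSeq promoters on GRCm38.p6. Of the 42 genes 33 had a promoter in that table. The first motif was found in 13 of them (39.4%), against 3.46% of all 27,025 genes in the table, the gamma-activated site in 6 (18.2%, against 8.13%) and the cAMP response element in 0 (against 1.77%). In Bst2 a response element and a gamma-activated site overlap. Below, each stretch is written 5′ to 3′ on the strand of its gene with the matches in capitals, which appear as the reverse complement where the motif is on the opposite strand. Ifit1, Ifit3, Isg15, Oas1a and Gbp3 were higher with TGFβ in R314A-CREB and S133A-CREB. Gbp2 and Oas3 were lower in all 7 lines, and Ifitm2 varied least.
Ifit1 (chr19:34640765-34640833, + strand): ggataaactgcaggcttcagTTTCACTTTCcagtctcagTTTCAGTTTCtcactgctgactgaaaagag
Ifit3 (chr19:34583353-34583436, + strand): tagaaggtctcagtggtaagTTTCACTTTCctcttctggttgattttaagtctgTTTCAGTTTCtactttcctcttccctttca
Isg15 (chr4:156200855-156200916, - strand): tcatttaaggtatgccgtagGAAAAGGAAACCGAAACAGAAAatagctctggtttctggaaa
Oas1a (chr5:120907526-120907565, - strand): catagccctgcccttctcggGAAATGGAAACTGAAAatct
Gbp3 (chr3:142559979-142560034, + strand): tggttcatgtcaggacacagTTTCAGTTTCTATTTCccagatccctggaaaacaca
Gbp2 (chr3:142620584-142620633, + strand): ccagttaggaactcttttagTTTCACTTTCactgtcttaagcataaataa
Oas3 (chr5:120777705-120777754, - strand): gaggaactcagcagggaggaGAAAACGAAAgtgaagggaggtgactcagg
Ifitm2 (chr7:140955978-140956027, - strand): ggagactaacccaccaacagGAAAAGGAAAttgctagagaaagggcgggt
Isg15 held 3 overlapping matches, ending 56 bases before its start, and those of Oas1a ended 4 bases before it. The stretch of Ifit3 occurs letter for letter before Ifit3b as well. The 13 genes with this motif had a median TGFβ minus control difference of 1.06 in R314A-CREB and -0.71 in KCREB, and the 19 examined genes in the table without it 0.60 and -0.54. The 9 examined genes with no promoter there had 0.66 and -0.84. For the same groups of genes, in this order, the medians were -0.54, -0.49 and -0.84 in WT-CREB and -0.38, -0.018 and -0.27 in Vector. The motif was thus also present in genes that were lower in every line, and a match is no evidence of binding.

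The 4 IFIT genes, which encode proteins that bind viral RNA and block its translation, lie next to each other on chromosome 19 (34527961 to 34627409, GRCm39). As a family they had the widest swings, with median differences of 1.32 in R314A-CREB and 0.34 in S133A-CREB against -1.62 in KCREB and -1.17 in Vector. Ifit1 had 336 TPM with TGFβ and 72.0 TPM in control in R314A-CREB, and 406 and 179 TPM in S133A-CREB. In WT-CREB, KCREB, S133A-KCREB, S133A/R314A-CREB and Vector it had 16.2, 34.1, 10.9, 23.1 and 22.2 TPM with TGFβ, against 37.6, 93.9, 18.6, 32.6 and 40.5 TPM in control. The 2 lines with a positive difference thus also had the highest TGFβ levels of Ifit1, and all 14 values lay between 10.9 and 406 TPM. Ifit3 had 78.0 TPM with TGFβ and 30.5 TPM in control in R314A-CREB, and 181 and 134 TPM in S133A-CREB. Ifit3 in the other 5 lines, in the same order, had 3.13, 7.28, 1.38, 5.59 and 6.88 TPM with TGFβ, against 7.86, 28.1, 8.02, 13.3 and 18.2 TPM in control. Ifit3b, a near-identical copy of Ifit3 whose reads the authors' counting could split between the copies, gave 76.5 and 30.2 TPM in R314A-CREB and 94.3 and 82.6 TPM in S133A-CREB. For the other 5 lines its TGFβ values were 2.81, 5.47, 1.74, 5.28 and 5.47 TPM, against 9.58, 25.4, 12.4, 19.1 and 21.3 TPM in control. Ifit2 moved less, with 64.6 TPM with TGFβ against 54.9 TPM in control in R314A-CREB and 83.3 against 69.6 TPM in S133A-CREB. Ifit2 elsewhere had 32.9, 33.5, 20.4, 35.5 and 28.3 TPM with TGFβ, against 51.8, 73.3, 37.2, 63.3 and 59.9 TPM in control.

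Across the 7 lines, with the line as a block, Ifit2 fell with TGFβ by 0.57 ± 0.18 (log2, SE, limma adjusted p = 0.0261) and Ifit3b fell by 1.11 ± 0.40 (adjusted p = 0.0483). Both were lower in 5 of 7 lines. Both calls were lost when WT-CREB, KCREB, S133A-KCREB, S133A/R314A-CREB or Vector was left out, with adjusted p of up to 0.0711 for Ifit2 and 0.124 for Ifit3b. Ifit1 (-0.18 ± 0.41, limma adjusted p = 0.742) and Ifit3 (-0.78 ± 0.37, adjusted p = 0.107) did not pass. Without R314A-CREB, Ifit3 passed at -1.13 ± 0.27 (limma adjusted p = 0.012).

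**Figure D2:**
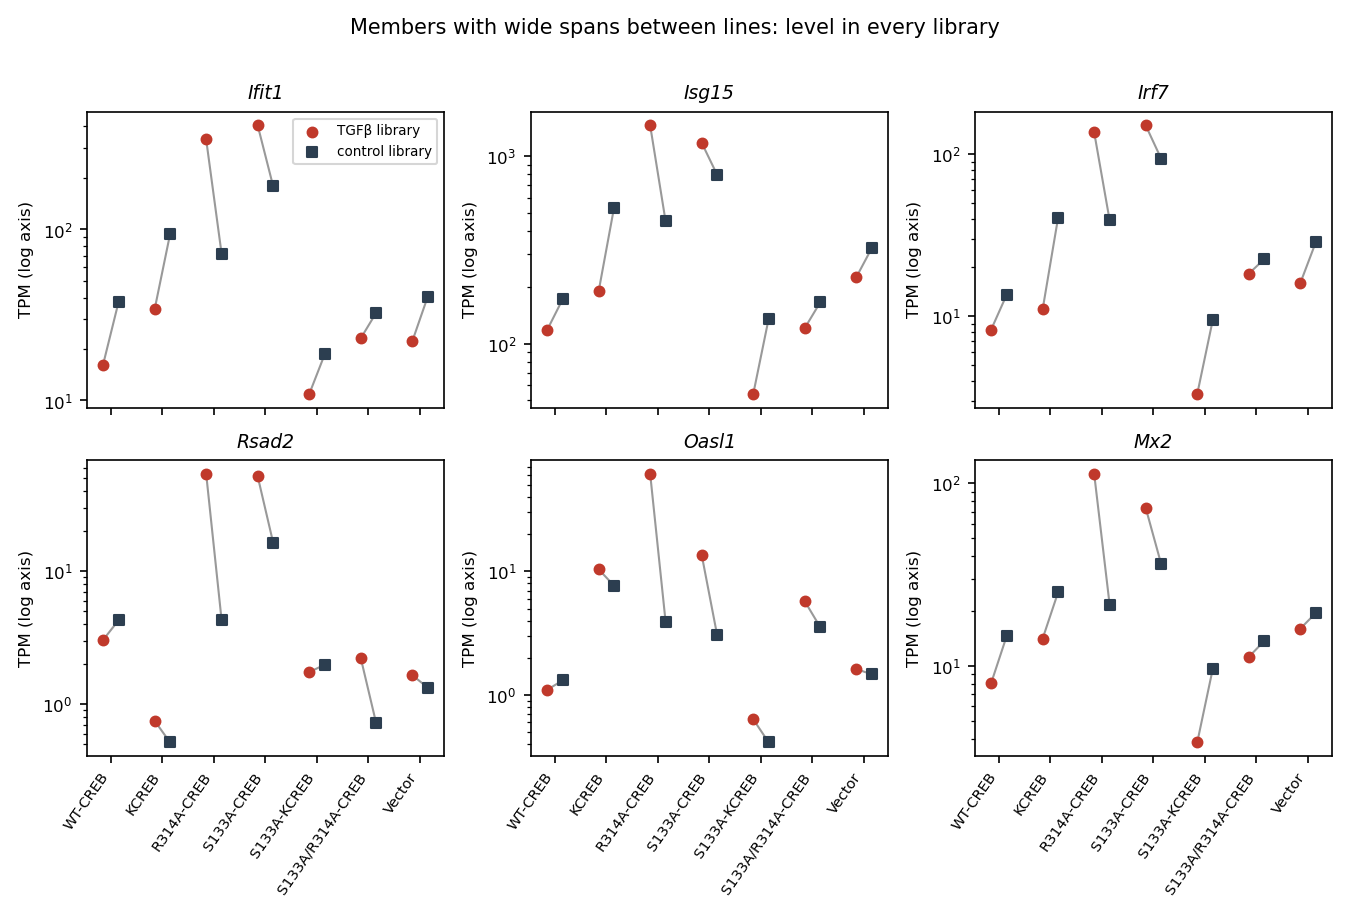
Level in TPM (log axis) of 6 genes with large differences between lines, with the TGFβ library (red circle) left of the control library (dark square) for each line. In R314A-CREB and S133A-CREB the TGFβ point is the higher of each pair, up to 1459 TPM for Isg15, and in WT-CREB it is the lower of each pair.

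The ISG15 system attaches the ubiquitin-like protein ISG15 to other proteins, with Herc6 as a mouse ligase for it, Trim25 as a ubiquitin and ISG15 ligase and Usp18 as the enzyme that removes it and dampens receptor signalling. Isg15 (chromosome 4, 156283881 to 156285275) was among the 6 highest genes of the set, at 1459 TPM with TGFβ and 449 TPM in control in R314A-CREB and 1178 and 795 TPM in S133A-CREB. For WT-CREB, KCREB, S133A-KCREB, S133A/R314A-CREB and Vector the TGFβ levels were 118, 189.8, 53.8, 121 and 226 TPM, against 172, 532, 136, 166 and 323 TPM in control. The groups of TGFβ and control values overlap widely, and over the 7 lines Isg15 did not pass (-0.29 ± 0.33, limma adjusted p = 0.497). Usp18 differed by 1.72 in R314A-CREB and 1.00 in S133A-CREB, and by -1.05 to -0.21 in the other lines. Trim25 had smaller differences, 0.71 and 0.55 in the same 2 lines and -0.19 to 0.064 in the rest. Herc6 was higher with TGFβ in R314A-CREB alone, by 0.55.

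The OAS proteins make oligoadenylates that switch on RNase L, OASL proteins are relatives of OAS with roles in antiviral regulation, and PKR, encoded by Eif2ak2, halts translation when it meets viral RNA. Members of this group did not share a single pattern. Oasl1, which in mouse restrains translation of Irf7, had the widest span of all 41 genes, with 61.7 TPM with TGFβ against 3.90 TPM in control in R314A-CREB and 13.6 against 3.05 TPM in S133A-CREB. For the other 5 lines, from WT-CREB to Vector, its TGFβ values were 1.1, 10.4, 0.636, 5.73 and 1.62 TPM, against 1.31, 7.65, 0.413, 3.54 and 1.47 TPM in control. Oasl1 was thus higher with TGFβ in 6 of 7 lines, but over the lines it did not pass (0.95 ± 0.41, limma adjusted p = 0.0879). Oas2 went the other way and was lower in 6 of 7 lines, R314A-CREB included (41.6 TPM with TGFβ, 69.2 TPM in control). In S133A-CREB Oas2 had 138 and 127 TPM, the only higher TGFβ value. Oas2 in the remaining lines had 1.29, 1.31, 0.290, 7.71 and 11.4 TPM with TGFβ, against 3.67, 7.05, 1.15, 17.1 and 24.8 TPM in control. Its fall of 0.90 ± 0.18 passed (limma adjusted p = 0.0035).

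Oas3 was lower in all 7 lines and fell by 0.39 ± 0.11 (limma adjusted p = 0.0169). Its TGFβ levels were 7.23 TPM in R314A-CREB and 22.1 TPM in S133A-CREB, against 8.0 and 24.0 TPM in control. The other 5 lines had 1.06, 0.136, 0.097, 1.42 and 2.15 TPM of Oas3 with TGFβ, against 2.48, 0.235, 0.814, 2.09 and 3.55 TPM in control. Oas1a differed far more between lines than between treatments. Its TGFβ levels were 0.869 TPM in WT-CREB, 1.87 TPM in KCREB, 55.6 TPM in R314A-CREB, 138 TPM in S133A-CREB, 3.64 TPM in S133A-KCREB, 9.54 TPM in S133A/R314A-CREB and 28.1 TPM in Vector. The control levels of Oas1a, in the same order, were 1.09, 2.93, 40.5, 86.3, 5.08, 13.8 and 32.9 TPM. Oasl2 differed by 1.13 in R314A-CREB, 0.39 in S133A-CREB and 0.62 in Vector, and by -0.96 in WT-CREB. Eif2ak2 and Adar, which encodes an RNA-editing enzyme, stayed between -0.32 and 0.55 in every line. Reads may be split among related OAS genes, so single members are uncertain where copies are alike.

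Of the 3 sensors, Ifih1 (MDA5) and Dhx58 (LGP2) bind viral RNA and Zbp1 binds nucleic acids in the Z form. Ifih1 was at 38.3 TPM with TGFβ and 13.4 TPM in control in R314A-CREB, a difference of 1.44, and differed by 0.47 in S133A-CREB and by -1.11 to -0.39 elsewhere. Dhx58 had 42.6 TPM with TGFβ against 34.0 TPM in control in R314A-CREB and 41.3 against 40.9 TPM in S133A-CREB. Dhx58 in the other 5 lines had 4.89, 13.5, 5.73, 10.5 and 11.1 TPM with TGFβ, against 11.8, 42, 14.7, 20.4 and 22.3 TPM in control. Over the lines Dhx58 fell by 0.78 ± 0.21 (limma adjusted p = 0.0144), with 5 of 7 lines lower. Zbp1 had 67.0 TPM with TGFβ against 64.7 TPM in control in R314A-CREB and 193 against 203 TPM in S133A-CREB. For WT-CREB to Vector among the other lines Zbp1 had 19.5, 12.1, 7.20, 6.48 and 19.0 TPM with TGFβ, against 47.4, 22.4, 23.7, 11.4 and 31.1 TPM in control. It fell by 0.73 ± 0.18 (limma adjusted p = 0.00955), lower in 6 of 7 lines.

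The dynamin-like GTPases of the set are the Mx proteins, which trap viral components, and guanylate-binding proteins, which attack the vacuoles of intracellular pathogens. Mx2 had 113 TPM with TGFβ against 21.7 TPM in control in R314A-CREB and 73.5 against 36.2 TPM in S133A-CREB. In WT-CREB, KCREB, S133A-KCREB, S133A/R314A-CREB and Vector its TGFβ values were 8.03, 14.1, 3.81, 11.2 and 16.0 TPM, against 14.5, 25.3, 9.59, 13.7 and 19.5 TPM in control. Mx1 showed the same split at lower levels, with 11.8 TPM with TGFβ against 2.56 TPM in control in R314A-CREB and 8.67 against 4.27 TPM in S133A-CREB. Mx1 elsewhere had 0.965, 1.33, 0.427, 0.956 and 1.5 TPM with TGFβ, against 2.73, 5.33, 2.12, 1.83 and 3.81 TPM in control. Neither passed over the 7 lines, Mx1 at -0.32 ± 0.37 (limma adjusted p = 0.503) and Mx2 at 0.011 ± 0.37 (adjusted p = 0.984). Gbp3 and Gbp7 differed by 1.33 and 1.06 in R314A-CREB and by 0.51 and 0.53 in S133A-CREB.

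Gbp2, next to them on chromosome 3 (142326424 to 142343769), did not follow. It had 85.9 TPM with TGFβ against 87.5 TPM in control in R314A-CREB and 154 against 193 TPM in S133A-CREB. Gbp2 in the other 5 lines had 53.5, 8.64, 14.1, 18.4 and 36.5 TPM with TGFβ, against 97, 14.8, 45.9, 32.1 and 94.9 TPM in control. It was lower in all 7 lines and fell by 0.81 ± 0.17 (limma adjusted p = 0.00446).

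Proteins that restrict viruses at membranes include viperin (Rsad2), tetherin (Bst2) and the IFITM proteins, and Cmpk2 is a nucleotide kinase whose gene neighbours Rsad2. Rsad2 had 54.1 TPM with TGFβ against 4.28 TPM in control in R314A-CREB and 51.7 against 16.4 TPM in S133A-CREB. For the other 5 lines its TGFβ levels were 3.04, 0.749, 1.74, 2.22 and 1.65 TPM, against 4.27, 0.515, 1.98, 0.716 and 1.33 TPM in control. Rsad2 was thus at or under 4.28 TPM in all libraries of those 5 lines and in the R314A-CREB control library. It did not pass over the lines (0.82 ± 0.40, limma adjusted p = 0.118). Bst2, the gene with the highest mean level of the set, had 848 TPM with TGFβ against 475 TPM in control in R314A-CREB and 1330.1 against 1091 TPM in S133A-CREB. Bst2 in the remaining lines had 211, 182, 190.5, 376 and 367 TPM with TGFβ, against 309, 361, 365, 608 and 462 TPM in control, and did not pass (-0.34 ± 0.20, limma adjusted p = 0.201). Cmpk2 had a difference of 0.65 in R314A-CREB, 0.13 in S133A-CREB and -1.17 to -0.31 in the other lines.

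Ifitm2 and Ifitm3, of the same gene cluster on chromosome 7, behaved unlike each other. Ifitm2 varied least of the set, between 361 and 525 TPM with TGFβ and between 367 and 602 TPM in control, and fell by 0.17 ± 0.052 (limma adjusted p = 0.0231). That call was lost without KCREB, R314A-CREB, S133A-KCREB or Vector, with an adjusted p of up to 0.0607. Ifitm3 had 239 TPM with TGFβ against 339 TPM in control in WT-CREB, 893 against 774 TPM in S133A-CREB and 58.9 against 124 TPM in S133A/R314A-CREB. Its levels were 52.3 against 55.1 TPM in R314A-CREB, 19.6 against 37.8 TPM in Vector, 6.36 against 23.7 TPM in KCREB and 2.35 against 7.28 TPM in S133A-KCREB. Ifitm3 fell by 0.77 ± 0.21 (limma adjusted p = 0.0149), lower in 6 of 7 lines.

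**Figure D3:**
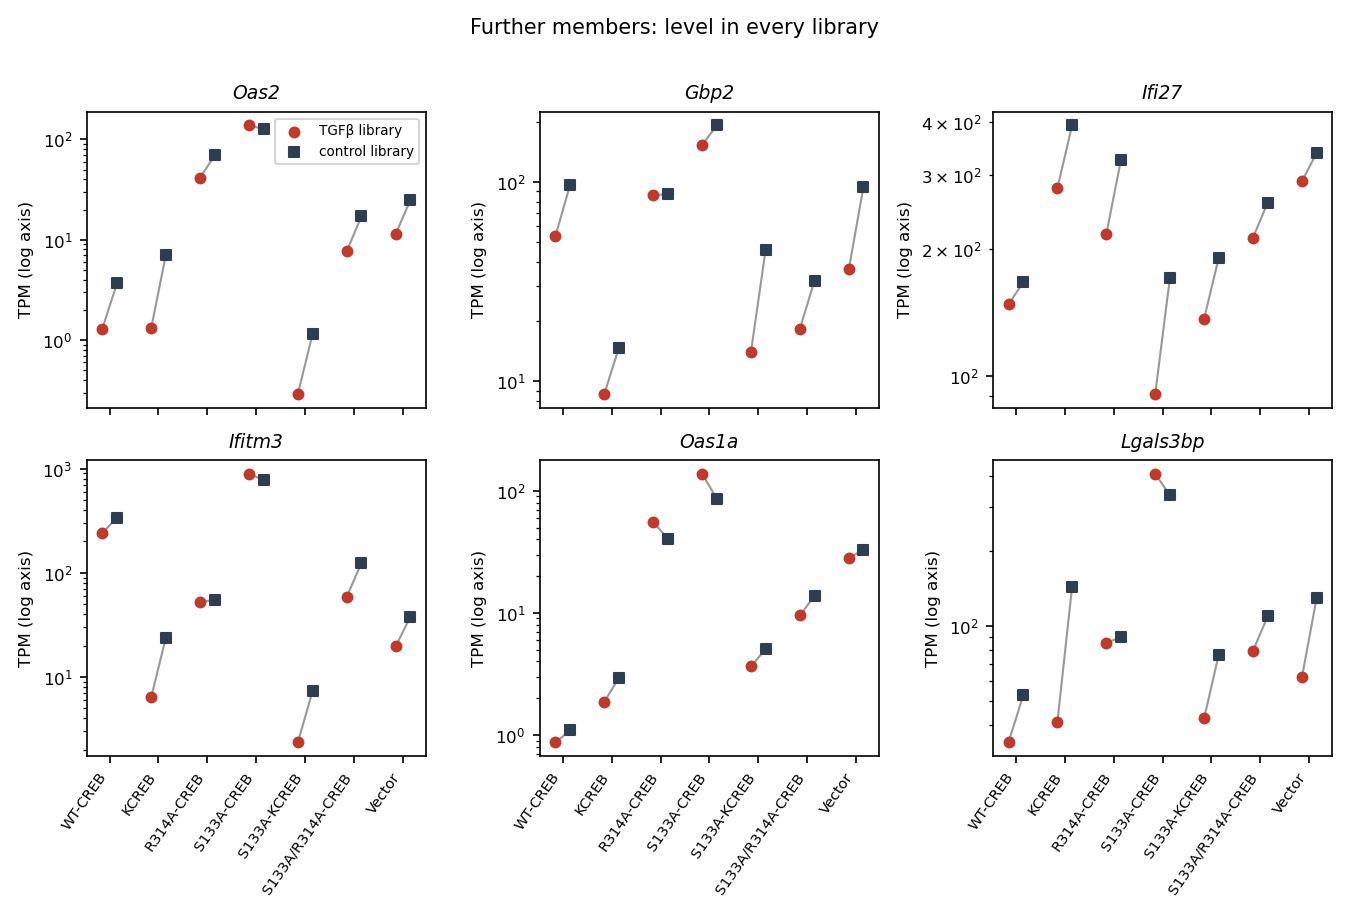
Level in TPM (log axis) of 6 further genes of the set, with the TGFβ library (red circle) left of the control library (dark square) for each line. Gbp2 and Ifi27 are lower with TGFβ in every line, while Oas1a and Ifitm3 differ mainly between lines, with Oas1a at 0.869 TPM in the WT-CREB TGFβ library and 138 TPM in that of S133A-CREB.

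The transcription factors of the set differed in the same way, apart from Irf1. Irf7, which drives interferon genes and is itself induced by interferon, had 137 TPM with TGFβ against 39.2 TPM in control in R314A-CREB and 151 against 94.0 TPM in S133A-CREB. In the other 5 lines Irf7 had 8.24, 11.0, 3.30, 18.3 and 16.0 TPM with TGFβ, against 13.5, 40.5, 9.42, 22.5 and 28.6 TPM in control. Over the lines Irf7 did not pass (-0.33 ± 0.37, limma adjusted p = 0.484). Stat2 and Irf9, which encode parts of ISGF3, both differed by 0.62 in R314A-CREB, and by 0.37 and 0.26 in S133A-CREB. In the other lines Stat2 differed by -0.60 to -0.23 and Irf9 by -0.54 to 0.064. Irf1, a factor induced most strongly by interferon gamma, was lower with TGFβ in R314A-CREB (104 against 129.8 TPM) and in S133A-CREB (152 against 223 TPM). Irf1 in WT-CREB, KCREB, S133A-KCREB, S133A/R314A-CREB and Vector had 135, 61.1, 105, 75.9 and 109.9 TPM with TGFβ, against 189.6, 53.0, 142, 79.5 and 101 TPM in control.

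Parp9 and Dtx3l, which encode a complex for ADP-ribose and ubiquitin marks, and the related Parp14 had differences of 0.58 to 0.85 in R314A-CREB and 0.27 to 0.53 in S133A-CREB. Parp9 and Dtx3l lie on opposite strands and overlap by 558 bases. The strandedness of the libraries is not given in the sources used here, so reads in the overlap cannot be told apart. The remaining genes included both patterns. Ifi44, of uncertain function, was at 49.1 TPM with TGFβ against 12.7 TPM in control in R314A-CREB and 181 against 87.7 TPM in S133A-CREB. Ifi44 in the other 5 lines had 0.813, 1.89, 0.158, 7.79 and 1.89 TPM with TGFβ, against 1.19, 4.82, 0.454, 11.9 and 2.90 TPM in control. Ifi35, Xaf1 and Samd9l differed by 0.50 to 0.92 in R314A-CREB and by 0.13 to 0.63 in S133A-CREB.

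Ifi27 (chromosome 12, 103400448 to 103406504), which encodes a small membrane protein of mitochondria and the nuclear envelope, was lower in the lines where most of the set was higher. It was lower with TGFβ in all 7 lines, most in S133A-CREB (90.8 against 171 TPM) and R314A-CREB (217 against 326 TPM). Ifi27 in the other 5 lines had 148, 279, 137, 213 and 289.7 TPM with TGFβ, against 167, 393, 191, 258 and 338 TPM in control. It fell by 0.45 ± 0.083 (limma adjusted p = 0.0025). Lgals3bp, a secreted galectin-binding glycoprotein, had 407 TPM with TGFβ against 334 TPM in control in S133A-CREB and 85.5 against 89.7 TPM in R314A-CREB. Lgals3bp elsewhere had 34.0, 41.1, 42.5, 79.4 and 62.0 TPM with TGFβ, against 52.5, 143, 76.6, 109 and 129 TPM in control. Its fall of 0.64 ± 0.20 passed (limma adjusted p = 0.0286) but not without S133A-KCREB or Vector (adjusted p of up to 0.0738).

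**Figure D4:**
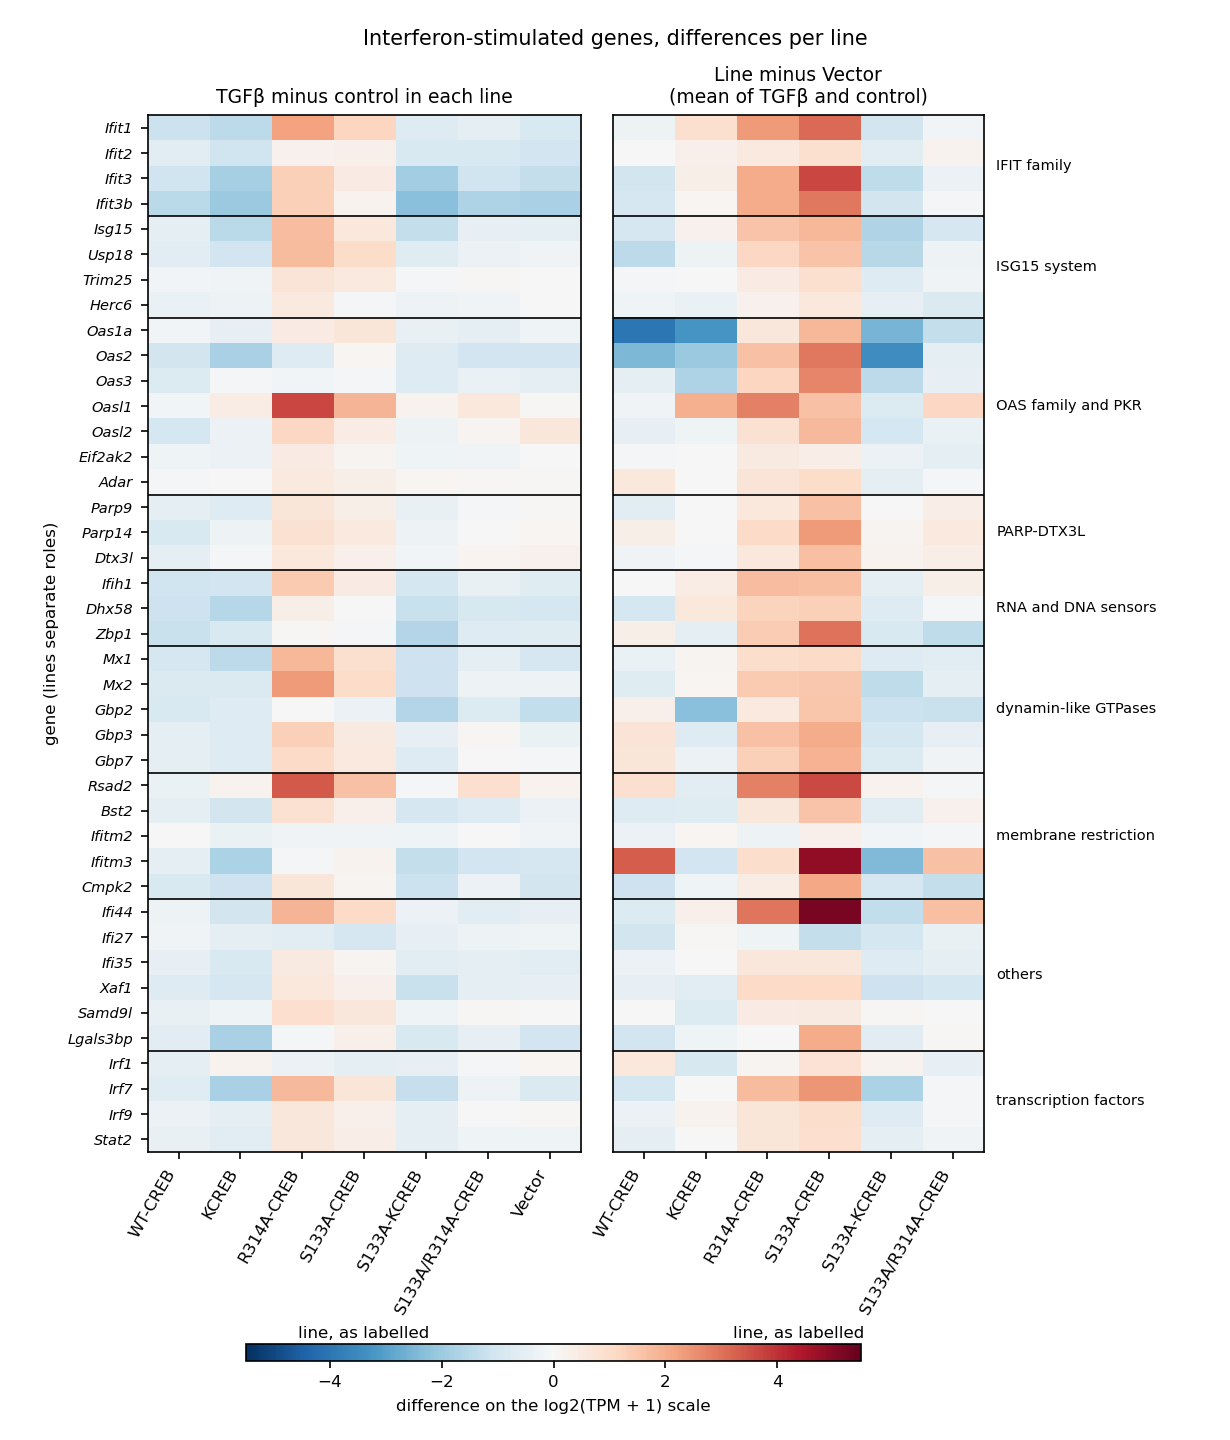
Differences on the log2(TPM + 1) scale for the 41 genes, grouped by role: TGFβ minus control in each of the 7 lines (left) and each CREB line minus Vector (right), red for higher and blue for lower. The R314A-CREB and S133A-CREB columns are mostly red in both panels, and the S133A-KCREB columns mostly blue.

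In the fit over all 7 lines, 0 of the 41 genes rose with TGFβ (24.1% of all genes tested did) and 11 fell (26.8%, against 21.4% of all genes). Oasl1 alone was higher at an unadjusted limma p under 0.05. The 11 are those given above: Ifit2, Ifit3b, Oas2, Oas3, Dhx58, Ifitm2, Ifitm3, Ifi27, Gbp2, Zbp1 and Lgals3bp. The share that fell was thus close to that of all genes. Leaving out 1 line moved the count most for R314A-CREB, without which 17 fell, and for S133A-KCREB or Vector, without either of which 7 fell. Of all 12,927 genes, 2298 to 2763 fell when 1 line was left out, against 2762 with all lines. The 17 of 41 were thus a larger share than that of all genes, and the 7 of 41 were close to it. Without R314A-CREB, Ifit3, Ifih1, Bst2, Ifi35, Xaf1, Cmpk2 and Herc6 also fell, and Ifitm2 no longer passed. With no block for the line, limma called 0 of the 41 genes, with 1 at an unadjusted p under 0.05. Of all genes it called 645 higher and 519 lower.

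By level, the 2 lines in which the set was higher with TGFβ also stood highest against Vector. They did so in control libraries alone as well, with medians of 1.24 in S133A-CREB and 0.43 in R314A-CREB, against at most 0.15 elsewhere. These comparisons all use the same 2 Vector libraries, and their differences are the mean over the TGFβ and control libraries. S133A-CREB stood highest, with a median difference from Vector of 1.6 and 30 of 41 genes at least 2-fold higher (5.62% of all genes were) and 1 lower (2.2%). R314A-CREB followed with a median of 0.95, 19 genes higher (1.77%) and 0 lower (2.13%). S133A-KCREB stood lowest, at a median of -0.74, with 0 higher (2.51%) and 13 lower (3.47%). WT-CREB had a median of -0.34, with 1 gene higher (4.09%) and 6 lower (5.56%), and S133A/R314A-CREB -0.19, with 3 higher (2.39%) and 4 lower (2.71%). KCREB was close to Vector at -0.038, with 1 higher (0.859%) and 5 lower (2.31%). Its sign depended on the treatment, at -0.25 in TGFβ libraries and 0.15 in control libraries.

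The excess in S133A-CREB was present in control cells, and that in R314A-CREB was mostly a matter of the TGFβ library. Against Vector, the medians of S133A-CREB were 2.13 in TGFβ libraries and 1.24 in control libraries, and those of R314A-CREB 1.37 and 0.43. Of the 41 genes, 23 had their highest level of all 14 libraries in the S133A-CREB TGFβ library and 11 in that of R314A-CREB. A total of 22 had their lowest in the S133A-KCREB TGFβ library. The TGFβ minus control difference was larger in R314A-CREB than in S133A-CREB for 34 of 41. These counts were not made over all genes, so they cannot be read as particular to the set. The S133A-CREB libraries also had the most genes at 1 TPM or more, 13,053 with TGFβ and 13,081 in control.

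Single genes departed from their line. In S133A-CREB, Ifi44 was 5.24 above Vector (log2) and Ifitm3 4.88, while Ifi27 was 1.32 lower, at a difference of -1.32. R314A-CREB had Ifi44 at 2.96 and Oasl1 at 2.79 above Vector, and Ifitm2 at -0.27 and Ifi27 at -0.24. WT-CREB combined a difference of 3.33 for Ifitm3 and 0.89 for Rsad2 with -3.99 for Oas1a and -2.45 for Oas2. In KCREB, Oasl1 was at 1.97 and Ifit1 at 0.90, against -3.23 for Oas1a and -2.28 for Gbp2. S133A-KCREB had no gene above 0.21 (Irf1, with Rsad2 at 0.20), and Oas2 was at -3.43 and Oas1a at -2.56. In S133A/R314A-CREB the ends were Ifi44 at 1.67 and Ifitm3 at 1.61, and Zbp1 at -1.40 and Oas1a at -1.33. Oas1a was thus below Vector in 4 of the 6 CREB lines and above it in R314A-CREB (0.63) and S133A-CREB (1.81).

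The lines with S133A were set against those with intact S133, in 3 pairs matched for the rest of the construct. The other replicated feature of the labels (intact, K or R314A) was a covariate and was not itself tested. Of the 2 lines with high levels of the set, S133A-CREB carries S133A and R314A-CREB does not. For the levels, limma called 0 of the 12,927 genes (0.0%). An unadjusted p under 0.05 was found for 753 genes, 1 of them in the set (Ifi27, -0.51 ± 0.20, adjusted p = 0.809). For the difference in the TGFβ response, limma also called 0 genes (0.0%), and 476 had an unadjusted p under 0.05, none of them from the set. No call was made when any 1 line was left out, but the genes of the set at an unadjusted p under 0.05 were not stable in number. A line whose matched partner is left out is alone in its covariate class and is fitted exactly. Leaving out either line of a pair thus gives the same contrast of the remaining pairs, and counts as 1 result. For the levels, these genes numbered 26 without WT-CREB or without S133A-CREB, and 4 without R314A-CREB or without S133A/R314A-CREB. The 26 were a far larger share of the set than the share of all genes in the same fits. For the TGFβ response they numbered 9 without R314A-CREB and 11 without S133A/R314A-CREB, again 1 contrast. They numbered 3 without WT-CREB and 2 without S133A-CREB, likewise 1 contrast. For the TGFβ response, the 9 and 11 were a larger share of the set than the share of all genes in the same fits. The 3 and 2 were not. Differences between single lines have no replicate.

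Genes that act upstream of the set were read from lists of the pathway, whose counts of calls over the 7 lines stand against 24.1% of all genes higher and 21.4% lower. Of 21 interferon genes 0 averaged 1 TPM and 10 were listed at 0 in all libraries. Ifnb1, interferon beta (chromosome 4, 88440262 to 88441031), was listed at 1.86 TPM in the R314A-CREB TGFβ library and 1.08 TPM in the S133A-CREB TGFβ library, and at 0 in the other 12. Mean per-base coverage of the gene was 3.4 and 3.39 in those libraries. Ifna4 had 0.254 and 0.472 TPM in the same 2 libraries and 0.0301 TPM in 1 other. The 2 libraries that list Ifnb1 above 0 are those of the lines in which the set was higher with TGFβ. Of these, S133A-CREB with TGFβ had the highest coverage per FPKM of all libraries (10.1), and R314A-CREB with TGFβ had 5.74. No test was made on these levels, and read counts behind them are not given.

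Receptor genes were expressed in every line. Ifnar1 lay between 36.8 and 53.6 TPM with TGFβ and between 39.4 and 54.9 TPM in control, and Ifnar2 between 52.3 and 81.7 TPM with TGFβ and between 51.2 and 102 TPM in control. Ifngr1 and Ifngr2, the interferon gamma receptor, ranged from 57.4 to 167 TPM over all libraries, and Ifnlr1 was at most 0.0695 TPM. Of the 5 receptor genes tested 1 fell, Il10rb, by 0.38 ± 0.05 (limma adjusted p = 0.000546). Among 10 JAK-STAT genes tested 1 rose, Ptpn2, and 3 fell, Tyk2 (-0.42 ± 0.055, limma adjusted p = 0.000544), Ptpn6 and Socs1. Among 13 sensing genes tested 1 rose (Traf3, 0.33 ± 0.062, limma adjusted p = 0.00263) and 4 fell (Mavs, Ikbke, Irf2 and Ticam1). Ddx58 (RIG-I), a sensor of viral RNA, was higher with TGFβ by 0.55 (log2) in R314A-CREB, where control had 337 TPM, and had 386 TPM with TGFβ against 333 TPM in control in S133A-CREB. Ddx58 in the other 5 lines had 87.6, 146, 127, 218 and 207 TPM with TGFβ, against 132, 303, 202, 245 and 315 TPM in control. The calls of Irf2 and Ticam1 were lost without single lines (6 and 4 of 7), with an adjusted p of up to 0.0942 and 0.0587.

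Other genes known to be induced by interferon showed both patterns again. Of 34 tested, 3 rose with TGFβ over the lines (Ifi47, Helz2 and Apol9b) and 11 fell (Iigp1, Gbp4, Gbp6, Gbp9, Gbp10, Ddx60, Sp100, Nmi, Pml, Uba7 and Phf11b), against 24.1% and 21.4% of all genes. Leaving out single lines ended the calls of Iigp1, Ddx60 and Sp100 (5 of 7 lines each, adjusted p of up to 0.0908, 0.0904 and 0.092), of Ifi47 (without S133A/R314A-CREB, 0.0615) and of Helz2 (without Vector, 0.0549). The median difference of the 34 was 0.55 in R314A-CREB and 0.22 in S133A-CREB, and -0.62 to -0.35 in the other lines. Cxcl10, a chemokine that attracts T cells, had 149.8 TPM with TGFβ against 5.79 TPM in control in R314A-CREB and 177 against 36.4 TPM in S133A-CREB. In WT-CREB, KCREB, S133A-KCREB, S133A/R314A-CREB and Vector, Cxcl10 had 23.5, 5.16, 5.89, 14.5 and 3.33 TPM with TGFβ, against 30.5, 4.26, 2.04, 3.44 and 4.70 TPM in control. Ccl5, another chemokine, had 169 TPM against 4.63 TPM in R314A-CREB and 84.9 against 12.1 TPM in S133A-CREB. Its other TGFβ libraries lay between 1.61 and 12.3 TPM, and their control libraries between 2.88 and 7.84 TPM.

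A block of guanylate-binding protein genes fell with TGFβ in every line, R314A-CREB and S133A-CREB included. Gbp4 fell by 2.10 ± 0.25 (limma adjusted p = 0.000358), with 17.4 TPM with TGFβ against 45.6 TPM in control in R314A-CREB and 22.9 against 45.8 TPM in S133A-CREB. In the other lines Gbp4 was between 2.46 and 5.52 TPM with TGFβ and between 14 and 38.3 TPM in control, so no TGFβ value there reached a control value. Gbp9 fell by 1.43 ± 0.19 (limma adjusted p = 0.000525), Gbp10 by 1.23 ± 0.20 (adjusted p = 0.00139) and Gbp6 by 1.12 ± 0.18 (adjusted p = 0.00134). Gbp2, a member of the set and of the same family, was also lower in all 7 lines, with a difference of -0.026 in R314A-CREB.

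**Figure D5:**
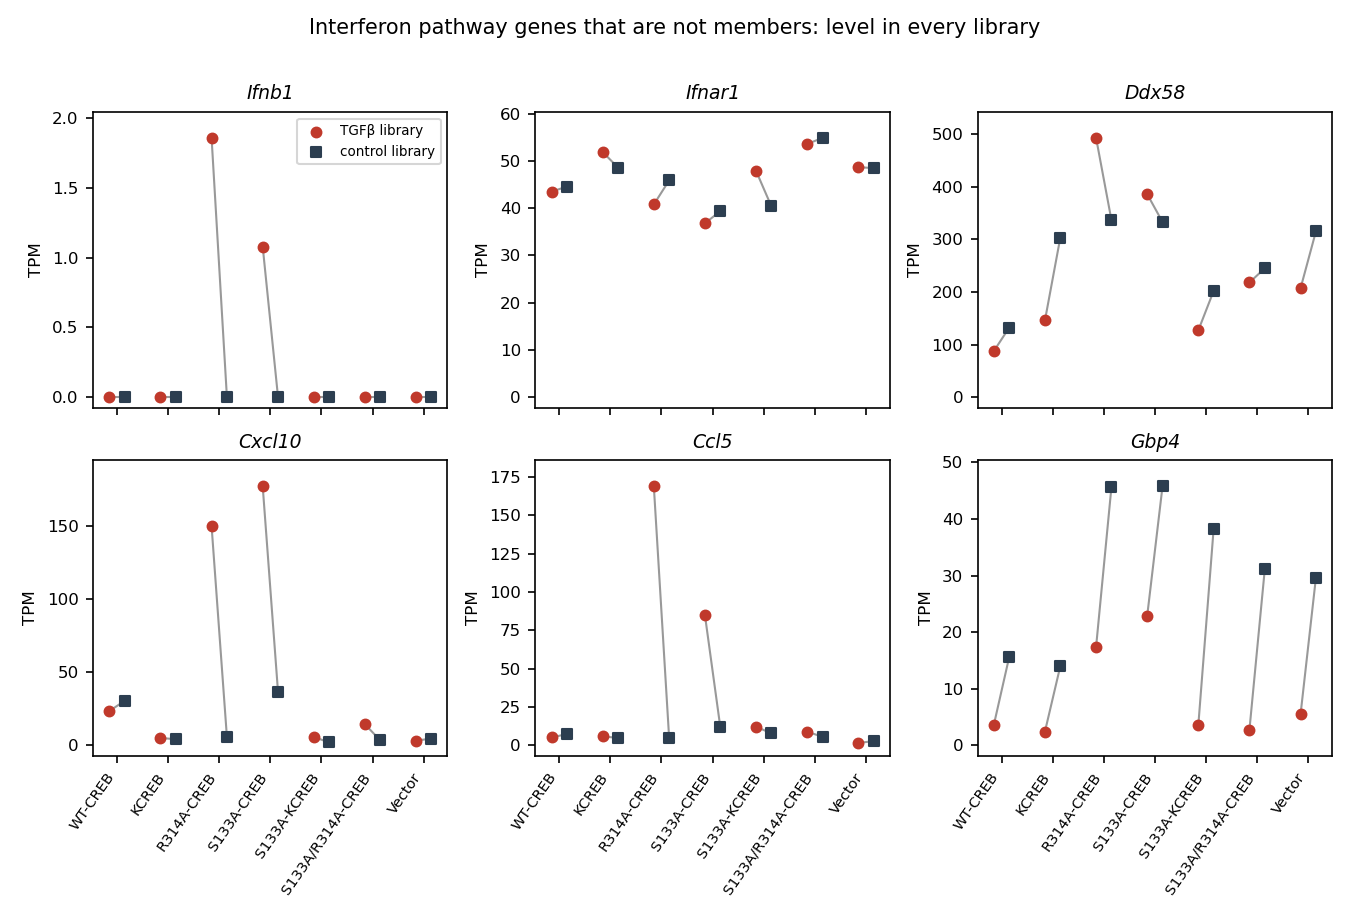
Level in TPM of 6 interferon pathway genes outside the set, with the TGFβ library (red circle) left of the control library (dark square) for each line. Ifnb1 is above 0 only in the TGFβ libraries of R314A-CREB (1.86 TPM) and S133A-CREB (1.08 TPM), Cxcl10 and Ccl5 are highest in the same libraries, Ifnar1 varies little, Ddx58 is higher with TGFβ in R314A-CREB and S133A-CREB and lower in the other 5 lines, and Gbp4 is lower with TGFβ in all 7 lines.

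Markers of other cell types that make or answer interferon were summed in each library. The 12 macrophage markers summed to 18.9 to 52.4 TPM with TGFβ and 29.5 to 93.2 TPM in control, with Lyz2 the largest part. Adgre1, C1qa and C1qb were at 0 in all 14 libraries and Ptprc was at most 0.545 TPM. Cd68 had 9.91 TPM with TGFβ against 3.62 TPM in control in R314A-CREB and 10.1 against 5.02 TPM in S133A-CREB. In the other lines Cd68 lay between 1.42 and 6.35 TPM. Aif1 (10.1 TPM) and Csf1r (3.92 TPM) were highest in the S133A-CREB TGFβ library, and both were higher with TGFβ in every line. Lyz2 went the other way in every line, with 28.0 against 68.1 TPM in S133A-CREB and 11.2 against 34.7 TPM in R314A-CREB. The macrophage sum was also lower with TGFβ in every line. S133A-CREB had the highest TGFβ sum of the 7 lines (52.4 against 81.8 TPM in control), and R314A-CREB had 27.3 against 43.7 TPM. The highest sum of all was in Vector control, at 93.2 TPM. The 6 dendritic cell markers summed to at most 0.3 TPM with TGFβ and 0.0782 TPM in control, and the 6 T and NK cell markers to at most 0.239 and 0.072 TPM. The 6 endothelial markers summed to 1.77 to 4.89 TPM with TGFβ and 1.04 to 2.99 TPM in control. In RNA from whole cultures, fewer cells with the response and less RNA per cell cannot be told apart.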

How the data were processed

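RNA from 14 cultures of αTN4-1 was sequenced on a DNBSEQ-T7 instrument, per the labels' protocols. The submitters' processing notes list StringTie 2.0.4, STAR 2.7.6a, edgeR and build GRCm39 without their roles. The gene annotation is not given in the sources used. The deposited tables hold TPM and FPKM as made by the authors, and per-base coverage (signal) per the file headers, for 40,853 gene identifiers, of which 19,322 to 22,145 per library are listed at 0. Read counts are not in them, so the text has no count model and no counting interval, and the ratio of coverage to FPKM stood in for depth. No 2 libraries were identical.

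TPM was taken as log2(TPM + 1), with a minimum mean of 1 TPM, a scale that understates changes of low genes. TGFβ was fitted over all genes with limma 3.58.1 (R 4.3.3), an intensity trend and the line as a block; the S133A effect on line means and its interaction on line differences were fitted over the 6 CREB lines with the zipper state as a covariate. Adjusted p-values are Benjamini-Hochberg over all genes, two-sided, with a threshold of 0.05. The block follows from the design, since both libraries of a line come from that line: their deviations correlated at r = 0.614 to 0.845, against at most 0.275 with any other line. The fits were tested on simulated data. Single lines have no test.

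The genes and lists were chosen with earlier results of these data known. Values in every library (the range for Ifitm2) are given for genes that passed the TGFβ test, the 6 highest levels, the 8 widest spans between lines and the 2 highest and lowest against Vector per line at a mean of at least 5 TPM. Promoters are RefSeq's on GRCm38.p6; gene coordinates are the files', on GRCm39. Alternatives were pseudocounts of 0.1 and 5, filters, scalings, FPKM, no trend, no block, single treatments, a 1.5-fold limit and each line left out.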

Additional observations from a re-analysis of the deposited data

Results flagged for a closer look

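The median TGFβ minus control difference of the 41 genes was 0.65 in R314A-CREB and 0.33 in S133A-CREB, against -0.73 to -0.31 in the other 5 lines. These directions are opposite, with 1 library per side, so the difference between the lines was not tested.

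Among 123 groups of 7 values examined (levels with TGFβ, levels in control, and differences), 5 had 1 value far from the others. By chance about 1 group in 20 is set aside, so 5 is no more than chance would give. In control cells of S133A-CREB, Parp14 stood at 64.8 TPM (13.9 to 24.7 TPM in the other 6 lines) and its partner gene Dtx3l at 62.4 TPM (19.5 to 26.5 TPM). Lgals3bp stood at 407 TPM in the S133A-CREB TGFβ library (34.0 to 85.5 TPM in the others). Samd9l was at 46.8 TPM in the KCREB control library (71.3 to 86.0 TPM in the others). Herc6 differed with TGFβ by 0.55 in R314A-CREB (-0.35 to -0.015 in the others).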

How the results depend on the processing

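The sign of the median TGFβ minus control difference held in all 7 lines under every alternative run. The 11 genes that fell over the lines became 4 with no filter on low values and 0 with no replicate block, and 7 to 17 when 1 line was left out. Over all genes the fit with no replicate block gave 645 higher and 519 lower, and leaving out 1 line gave 2298 to 2763 lower. Without the zipper term S133A gave 4 of all 12,927 genes higher, 0 of them in the set. The KCREB median against Vector was 0.15 in control libraries alone. Ifit1 ran from -0.58 to 0.028 and Mx2 from -0.38 to 0.20 when 1 line was left out, and Mx2 was -0.024 with a pseudocount of 0.1 and -0.008 with median-of-ratios scaling. Genes at least 2-fold lower with TGFβ numbered 2 to 9 in WT-CREB, KCREB, S133A-KCREB, S133A/R314A-CREB and Vector with a pseudocount of 5. At 1.5-fold instead, those lower numbered 19, 25, 22, 9 and 14 in these lines, with 1 higher in S133A/R314A-CREB and 1 in Vector. In R314A-CREB 24 were then higher and 2 lower, and in S133A-CREB 10 and 1. These counts have no share of all genes beside them, so they describe the set only. Each line and treatment is 1 culture, read counts are not given, and the number of reads behind low levels, such as those of Ifnb1, is unknown; for the other changes the cause was not tested.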
